A study of Rattus norvegicus with 4 samples.

Results

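The genes examined here were 40 genes of the cell cycle, chosen by name and taken where the gene ID of the deposited tables was identical to the symbol. All 40 were found among the 16992 genes of the tables, each with 1 row per library. By phase, they comprised 5 cyclins and kinases of G1, 3 genes of cyclin E and CDK2, 10 genes of S phase, 15 genes of G2 and M phase, 5 inhibitors, and the polo-like kinases *Plk2* and *Plk3*. The livers came from 4 wild type male Wistar rats bought at 6 weeks of age and acclimatized for at least 1 week, with 1 rat for each condition. In the 2 treated rats, 4.5% sevoflurane or 6% desflurane was inhaled for 6 h. The sevoflurane control and the desflurane control inhaled the respective agent only until they lost consciousness, in less than 1 minute, and no liver in the series came from a rat that had inhaled no agent. All 4 rats had gone without food and water for 2 h before the experiment and received the agent with 50% oxygen at 3 L/min. RNA was taken from the left lateral lobe of the liver. Each condition therefore rests on 1 library, so that no difference can be held against a spread between replicates and no test was made.

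Most hepatocytes of an adult liver rest outside the cell cycle and can re-enter it, most visibly after part of the liver has been removed. D-type cyclins with CDK4 and CDK6 start the passage through G1 by phosphorylating the retinoblastoma protein, which releases E2F transcription factors that switch on the genes of DNA replication. The genes of G2 and M phase are transcribed later, mostly under the DREAM and B-MYB–FOXM1 complexes, which are recruited in part through a short promoter element called the cell cycle genes homology region (CHR). In resting liver the latter genes are transcribed in few cells, and these include blood and immune cells as well as hepatocytes.

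Values are given in TPM, a level per length of transcript that can be compared between genes. A gene was called upregulated or downregulated when its TPM was higher than 2 in the higher of 2 libraries and differed more than 2-fold between them. Of the 40 members, 37 were higher than 2 TPM in at least 1 library and 30 in all 4. The exceptions were *Bub1b* (0.524 to 1.14 TPM), *Cenpf* (0.747 to 1.52 TPM), and *Cdkn1c* (1.0 to 1.84 TPM), which were too low for a call in every comparison. The aligned sequence amounted to 4.47 to 5.40 Gb per library, and the median coverage of the members was 7.13 to 10.2. Read counts were not used here, and the counting error of single values is unknown. Among the 9136 genes higher than 2 TPM in all 4 libraries, the median gene was higher by 0.05 on the log2 scale with sevoflurane and by 0.12 with desflurane, and changes with desflurane are read relative to that shift.

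The tissue markers were those of liver, with 7 of 7 hepatocyte markers present in every library and *Alb* at 77519 to 92912 TPM. Markers of blood and immune cells differed between the libraries. Summed levels cover only the markers higher than 1 TPM in any library. For T and NK cells, with 5 of 10 markers in the sum, the sevoflurane control was highest at 12.4 TPM. The sum was 4.36 TPM after sevoflurane, 8.37 in the desflurane control, and 8.47 after desflurane. *Cd3d* and *Cd3g*, too low for the sum, were at 0 in the desflurane control. The sevoflurane control was also the highest for the 11 markers of Kupffer cells and macrophages, at 809 TPM against 485, 641, and 757 in the same order. It was the highest as well for the 5 markers of all leukocytes (70.9, 38.3, 53.2, and 53 TPM) and for the erythroid sum of 5 of 9 markers (55.2, 36.7, 36.4, and 21.9 TPM). The neutrophil sum, from only 2 of 6 markers, was highest in the desflurane control instead (2.01, 2.24, 3.67, and 0.80 TPM). *Ltf*, another neutrophil marker, was at 0 in all 4 libraries. Of the 7 pancreatic acinar markers, *Cela1* had 15.1 to 22.8 TPM in all libraries, whereas the other 6 were higher than 2 TPM in the sevoflurane control and below 1 TPM elsewhere, and 0, 3, 4, and 5 of the 7 were at 0 in the respective libraries. The part of these cells in the results below was not tested. In whole tissue, fewer cells of a type and less RNA per cell cannot be told apart.

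With sevoflurane, 34 of the 40 members were higher than in the sevoflurane control, whereas with desflurane 30 were lower than in the desflurane control. Of all 10873 genes higher than 1 TPM in any library, 6078 were higher with sevoflurane and 3724 lower with desflurane. After median-of-ratios scaling, which sets the median ratio of each library to a common reference to 1, the number lower with desflurane was 35, and with FPKM, a level per length scaled to library size, it was 34. Of the 10873 genes, 5522 and 4751 were lower with desflurane on these scales. In TPM the directions were opposite for 27 members, which were higher with sevoflurane and lower with desflurane. No share of all genes was worked out for this count. Both agents showed higher TPM of *Ccnd3*, *Cdk4*, *Ccne1*, *Tyms*, *Ccnb2*, *Bub1*, and *Plk3*, and lower TPM of *Ccnd2*, *Cdc25b*, and *Plk2*. With desflurane, the log2 changes of *Cdk4*, *Bub1*, and *Tyms* were only 0.02, 0.02, and 0.06, below the shift of 0.12 of the median gene. After median-of-ratios scaling, 5 members were higher with desflurane. The median log2 change of the members, with 1 TPM added to each value, was 0.33 with sevoflurane and -0.18 with desflurane, compared with 0.04 and 0.11 over all 10873 genes higher than 1 TPM in any library. Most of these changes were small. Sevoflurane upregulated 3 of 37 members above the TPM limit (*Ccnb1*, *Ccnb2*, and *Plk3*), where 2.23% of all genes passed the same limits, and downregulated 0 of 37, where 3.3% of all genes passed. Desflurane upregulated 1 of 36 members (*Plk3*; 2.79% of all genes) and downregulated 3 of 36 (*Ccnd2*, *Plk2*, and *Mcm6*; 1.48% of all genes).

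The choice of control mattered for these counts. The 2 controls differed more than 2-fold in *Ccnb1*, *Cdkn1a*, and *Rrm2*, which were all higher in the desflurane control, that is in 3 of 36 members where 1.17% of all genes passed. In the other direction it was 0 of 36 members, and again 1.17% of all genes. The same 3 genes were called after median-of-ratios scaling. With FPKM, only *Cdkn1a* was called higher in the desflurane control (0.47% of all genes), and *Cdc25b* was called lower (1.26% of all genes). When each agent was set against the control of the other agent, 24 members were higher with sevoflurane and 23 with desflurane. Of the 10873 genes higher than 1 TPM in any library, 6150 and 6959 were higher. The median log2 changes were both 0.10, where all genes had 0.05 with sevoflurane and 0.10 with desflurane. That of desflurane was 0.02 after median-of-ratios scaling and -0.04 with FPKM, where all genes had -0.01 and -0.11. Against both controls at once, *Plk3* was the only member upregulated by sevoflurane (1.19% of all genes) and the only member upregulated by desflurane (1.26% of all genes). Sevoflurane placed 0 members below both controls by the same limits (1.38% of all genes). Desflurane placed *Ccnd2* and *Mcm6* below both controls (0.573% of all genes).

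**Figure D1:**
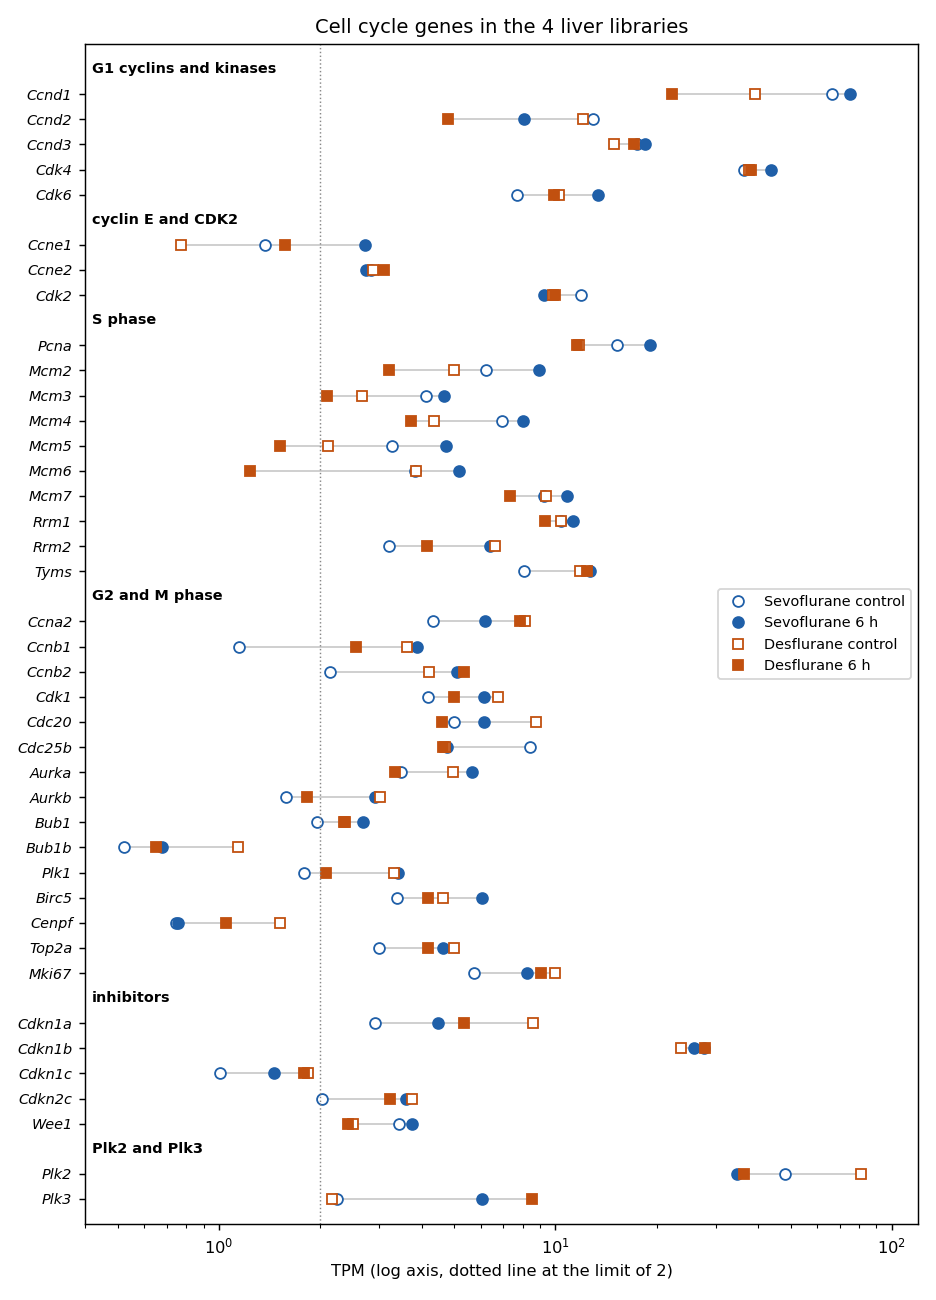
TPM on a log axis of the 40 members, by phase, in the 4 liver libraries, with 1 point per library and a dotted line at the limit of 2 TPM. The 6 h sevoflurane library is the highest and the 6 h desflurane library the lowest for *Ccnd1* and for *Mcm2* to *Mcm7*, the sevoflurane control is the lowest for most genes of G2 and M phase, and both 6 h libraries are above both controls for *Plk3*.

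**Figure D2:**
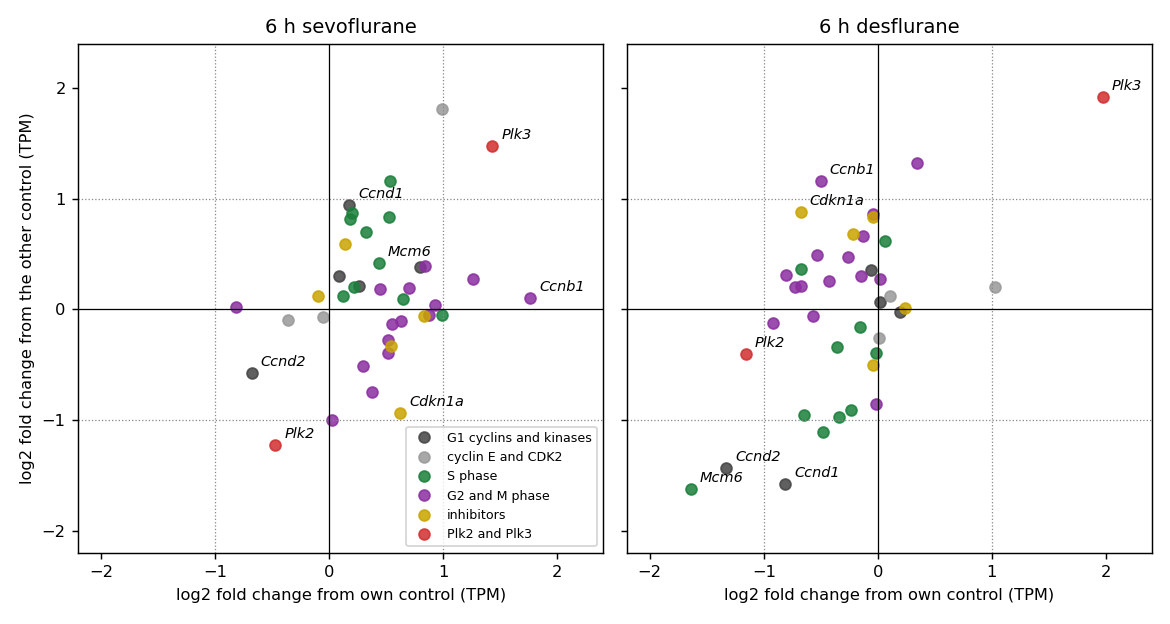
log2 fold change of TPM of each 6 h library from its own control (horizontal) and from the control of the other agent (vertical) for the 40 members, with dotted lines at 2-fold and 1 point per gene. *Plk3* lies beyond 2-fold on both axes with both agents, *Ccnd2* and *Mcm6* lie below both lines with desflurane, and *Ccnb1* leaves the region beyond 2-fold with sevoflurane when the other control is used.

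*Plk3* encodes a polo-like kinase that responds to stress and takes part in checkpoint control. Its values were 2.24 TPM in the sevoflurane control, 6.04 after sevoflurane, 2.17 in the desflurane control, and 8.50 after desflurane. The 2 controls were alike and both 6 h livers were clearly higher, by 2.69-fold with sevoflurane and 3.92-fold with desflurane. Against the other control the differences were 2.78-fold and 3.79-fold. The gene is at chr5:135997725-136002900 on the minus strand of rn6, with a coverage of 4.03, 10.2, 4.06, and 14.3 in the order of the TPM values.

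*Plk2*, a related kinase with roles in centriole duplication and stress responses, did not share this pattern. It was among the most abundant members, with 48.1 TPM in the sevoflurane control, 34.6 after sevoflurane, 81.1 in the desflurane control, and 36.4 after desflurane. It was lower than both controls in both 6 h livers, and the controls themselves differed 1.69-fold. The decrease with desflurane was 2.23-fold from its own control but 1.32-fold from the sevoflurane control, and that with sevoflurane was 1.39-fold and 2.34-fold.

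The promoter of *Plk3* is shown because this was the only member past the limits against both controls with both agents. The sequence is the 250 bases before the start in RefSeq (GRCr8, chr5:135848901-135849150, minus strand), and capitals mark matches to TGACG, the core of the cAMP response element, searched on both strands.
Plk3: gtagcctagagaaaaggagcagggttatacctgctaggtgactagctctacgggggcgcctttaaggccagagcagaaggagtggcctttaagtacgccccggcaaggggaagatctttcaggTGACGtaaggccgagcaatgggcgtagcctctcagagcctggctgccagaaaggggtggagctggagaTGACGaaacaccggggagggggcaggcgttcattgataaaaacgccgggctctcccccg
The sequence holds 2 matches. TGACG was present in 21.2% of all 33469 promoters of 300 bases in the RefSeq table, and in 32.4% of those of genes higher than 2 TPM in these livers. *Plk2* also had a match, and in addition the full palindrome TGACGTCA, which contains TGACG. The S phase gene *Mcm5* held the palindrome too. It was present in 1.83% of all promoters and in 3.1% of those of genes higher than 2 TPM. None of the 13 promoters of G2 and M phase genes in the table had a match to TGACG, while 5 of 8 promoters of S phase genes did. A match describes letters in this window and was not tested as a binding site.

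Among the genes of G1, the D-type cyclins went separate ways. *Ccnd1*, which encodes cyclin D1 and is the D-type cyclin most closely tied to growth signals in hepatocytes, had 66.6 TPM in the sevoflurane control, 75.2 after sevoflurane, 39.1 in the desflurane control, and 22.3 after desflurane. The 6 h livers lay outside the controls on either side, and the desflurane liver was 3.38-fold lower than the sevoflurane liver. Against its own control, *Ccnd1* was 1.13-fold higher with sevoflurane and 1.75-fold lower with desflurane, and neither passed the 2-fold limit. Desflurane was 2.99-fold lower than the sevoflurane control.

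*Ccnd2*, encoding cyclin D2, had 13.0 TPM in the sevoflurane control, 8.09 after sevoflurane, 12.1 in the desflurane control, and 4.8 after desflurane. Both controls were above both 6 h livers. Desflurane downregulated *Ccnd2* 2.52-fold from its own control and 2.70-fold from the other control, and with sevoflurane it was 1.60-fold and 1.49-fold lower. *Ccnd2* is at chr4:159674885-159697207 and *Ccnd1* at chr1:218090750-218100272, both on the minus strand of rn6. *Ccnd3*, encoding cyclin D3, varied little, with 17.4, 18.4, 15.0, and 17.1 TPM in the order of sevoflurane control, 6 h sevoflurane, desflurane control, and 6 h desflurane.

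The kinase partners of the D-type cyclins showed no change past the limits. *Cdk4* had 36.5, 43.6, 37.7, and 38.2 TPM in the same order, but its row overlaps *Marchf9* and *Tspan31*. *Cdk6* had 7.70, 13.4, 10.3, and 9.87 TPM, and was 1.74-fold higher with sevoflurane than in its own control and 1.30-fold higher than in the desflurane control.

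For the cyclins that activate CDK2 at the entry to S phase, *Ccne1* was higher in each 6 h liver than in its own control, at 1.37 TPM before and 2.72 after sevoflurane, and 0.773 before and 1.57 after desflurane. The ratio of 1.99 with sevoflurane was below the fold limit, and the ratio of 2.03 with desflurane came with a value below the TPM limit. Against the control of the other agent, *Ccne1* was 3.51-fold higher with sevoflurane, past the limits, and 1.15-fold higher with desflurane. *Ccne2* stayed between 2.74 and 3.08 TPM (2.84, 2.74, 2.87, and 3.08), and *Cdk2* between 9.26 and 11.9 TPM (11.9, 9.26, 9.87, and 9.94).

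The genes of S phase gave the clearest split between the agents. All 10 were higher with sevoflurane than in its own control, 9 of 10 were lower with desflurane, and 10 of 10 were lower after 6 h of desflurane than after 6 h of sevoflurane. Of the 10873 genes higher than 1 TPM in any library, 4447 were lower in the last comparison. The median log2 changes of the 10 genes were 0.33 with sevoflurane, -0.27 with desflurane, and -0.77 between the 6 h livers, where all genes had 0.07. In 8 of the 10 genes (*Pcna*, *Mcm2* to *Mcm7*, and *Rrm1*) the sevoflurane liver was the highest of the 4 and the desflurane liver the lowest, and the same 8 genes were found after median-of-ratios scaling and with FPKM. Over all members above 2 TPM in any library this order was seen in 11 of 37, or 29.7%, with *Ccnd1*, *Aurka*, and *Wee1* as the remaining 3, whereas 5.82% of all genes had it. By the same rule, 12 members had this order after median-of-ratios scaling, where 10.02% of all genes had it. With FPKM it was 8 members, where 13.3% of all genes had it. The limit of 2 was then on the FPKM scale, and *Mcm3*, *Mcm5*, and *Mcm6* fell below it.

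MCM2 to MCM7 form the ring-shaped helicase that is loaded at origins in G1 and unwinds DNA in S phase. All 6 genes were above both controls after sevoflurane and below both controls after desflurane. *Mcm2* had 6.20 TPM in the sevoflurane control, 8.92 after sevoflurane, 5.0 in the desflurane control, and 3.20 after desflurane. *Mcm5* had 3.26, 4.72, 2.11, and 1.51 TPM in the same order. The desflurane liver was 2.79-fold and 3.12-fold lower than the sevoflurane liver for these genes.

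*Mcm6* showed the largest difference between the 6 h livers among the members. It had 3.82 TPM in the sevoflurane control, 5.15 after sevoflurane, 3.86 in the desflurane control, and 1.24 after desflurane, with a coverage of 6.86, 8.72, 7.23, and 2.09. The controls were almost equal, and the desflurane liver stood apart. *Mcm6* was downregulated by desflurane 3.12-fold from its own control and 3.08-fold from the other, and it was 4.16-fold lower than in the 6 h sevoflurane liver. It is at chr13:45042882-45068073 on the minus strand of rn6. *Mcm6* was not called with FPKM, because its FPKM values were below 2.

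The remaining helicase genes had smaller differences of the same order. *Mcm3* had 4.12, 4.68, 2.66, and 2.1 TPM, *Mcm4* had 6.96, 8.0, 4.36, and 3.71 TPM, and *Mcm7*, whose row overlaps *Mir25*, *Mir93*, and *Mir106b*, had 9.27, 10.8, 9.37, and 7.30 TPM. From the own control, the 6 genes were 1.13-fold to 1.45-fold higher with sevoflurane and 0.320 to 0.851 of the control with desflurane, so that only *Mcm6* passed the limit. The 2 controls also differed, with *Mcm2* to *Mcm5* lower in the desflurane control by 1.24-fold to 1.59-fold. Between the 6 h livers, desflurane was lower past the limits in 6 of 37 members (*Ccnd1* and *Mcm2* to *Mcm6*), or 16.2%, where 1.17% of all genes passed, and it was higher in 0 of 37, where 2.76% passed. With FPKM and the same limits, 3 members were lower (*Ccnd1*, *Mcm2*, and *Mcm4*), where 1.64% of all genes passed.

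**Figure D3:**
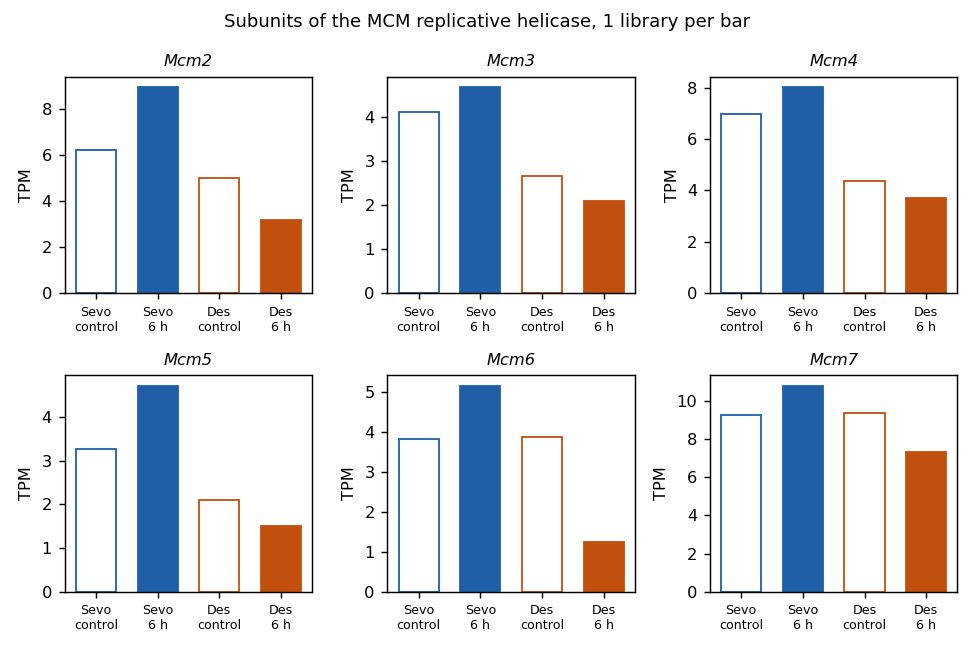
TPM of the 6 subunits of the MCM helicase, with 1 bar per library and axes that start at 0. For each subunit the 6 h sevoflurane bar is the tallest and the 6 h desflurane bar the shortest, and *Mcm6* has nearly equal controls of 3.82 and 3.86 TPM.

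The other genes of S phase were less uniform. *Pcna*, the sliding clamp of DNA polymerase, had 15.3 TPM in the sevoflurane control, 19.1 after sevoflurane, 11.8 in the desflurane control, and 11.6 after desflurane. *Rrm1*, the large subunit of ribonucleotide reductase, had 10.4, 11.3, 10.4, and 9.33 TPM, a range of 1.21-fold, and its row overlaps *Olr226* and *Olr227*. *Rrm2*, the small subunit whose level follows the cell cycle, departed from this order.

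*Rrm2* had 3.21 TPM in the sevoflurane control, 6.38 after sevoflurane, 6.62 in the desflurane control, and 4.14 after desflurane. Here the sevoflurane control was low and the desflurane control high. *Tyms*, which makes thymidylate, had 8.06, 12.7, 11.9, and 12.4 TPM, with the sevoflurane control below 3 similar values.

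Promoter windows of the S phase genes are shown because E2F factors are the known activators of this group, and 6 of the 8 that the RefSeq table holds had a match. Capitals mark TTTCGCGC or TTTGGCGC, searched on both strands, and where 2 matches overlap both are in capitals. The windows are from GRCr8.
Mcm2, chr4:122918088-122918113, minus strand: ccggtTTTCGCGCGAAAacccgtggc
Mcm3, chr9:30733717-30733742, minus strand: ttgggaagtTTTCGCGCcagggagga
Mcm5, chr19:13488595-13488620, plus strand: agaagTTTCGCGCCAAAacgtcccgc
Mcm6, chr13:42404471-42404496, minus strand: ctgctTTTGGCGCGAAAttagcgtgt
Mcm7, chr12:22163214-22163239, minus strand: gtgacgacgTTTCGCGCcaatttcgg
Tyms, chr9:120776104-120776129, minus strand: ggtgcgggtTTTGGCGCcgactacac
The motif was present in 0.792% of all promoters in the table and in 1.6% of those of genes higher than 2 TPM in these livers. *Mcm2*, *Mcm5*, and *Mcm6* each held 2 overlapping matches. *Pcna* and *Rrm1*, which shared the order of the MCM genes, had no match in this window, and *Tyms*, which did not share it, had 1. Among the 13 genes of G2 and M phase in the table, *Cdk1* had a match.

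Genes of G2 and M phase were set apart by the sevoflurane control. In 12 of the 15 genes this control was the lowest of the 4 livers, in 11 after median-of-ratios scaling, and in 9 with FPKM. Over all members above 2 TPM, it was the lowest in 16 of 37, or 43.2%, compared with 26.2% of all genes. By the same rule, it was the lowest in 15 members after median-of-ratios scaling, where 21.7% of all genes had this. With FPKM and the limit of 2 on that scale, it was 8 members and 7.46% of all genes. The counts of the 15 genes instead used the filter of 1 TPM in any library. At that filter, 2903 of 10873 genes had the sevoflurane control lowest in TPM and 1161 with FPKM. From the sevoflurane control, 14 of the 15 genes were higher after 6 h of sevoflurane, with a median log2 change of 0.46, and 14 were higher in the desflurane control, with a median of 0.59. Of the 10873 genes, 6078 and 5043 were higher in these comparisons. These comparisons share the sevoflurane control. With the desflurane control in its place, 7 of 15 genes were higher after sevoflurane and the median was -0.04, or 0.04 with FPKM. All genes had 0.05, or 0.13 with FPKM.

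With desflurane, 13 of the 15 genes were lower than in its own control, with a median log2 change of -0.30, and 12 of 15 were higher than in the sevoflurane control, with a median of 0.21. The summed level of the 15 genes was 47.4 TPM in the sevoflurane control, 67.2 after sevoflurane, 72.0 in the desflurane control, and 58.8 after desflurane. The sevoflurane control, with the lowest sum, had the highest summed markers of T and NK cells, B and plasma cells, Kupffer cells, all leukocytes, erythroid cells, and pancreatic acinar cells. The desflurane control, with the highest sum, had the highest summed markers of neutrophils and cholangiocytes. Those of endothelial cells, stellate cells, and hepatocytes were highest after desflurane. A link between these markers and the 15 genes was not tested.

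*Ccnb1*, encoding the cyclin B1 that activates CDK1 at mitosis, was the member furthest from its control with sevoflurane. It had 1.15 TPM in the sevoflurane control, 3.89 after sevoflurane, 3.62 in the desflurane control, and 2.56 after desflurane. The sevoflurane control alone was low, and the upregulation of 3.39-fold with sevoflurane was 1.07-fold when the desflurane control was used. In the sevoflurane control the row assembled from the reads at this gene, which covered 75.4% of the annotated span (chr2:30782133-30791106 on rn6), had 2.20 TPM, and the increase in assembled rows was 1.77-fold. *Ccnb2*, encoding cyclin B2, was called with sevoflurane at 2.13, 5.09, 4.21, and 5.34 TPM, an increase of 2.39-fold from its own and 1.21-fold from the other control. Its row lies within *Akap7* on chr1 of rn6, whereas RefSeq places *Ccnb2* on chr8 of GRCr8, and its value is therefore uncertain.

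The kinases and regulators of mitosis gave the same picture without passing the limits. *Cdk1*, the mitotic kinase, had 4.19 TPM in the sevoflurane control, 6.15 after sevoflurane, 6.73 in the desflurane control, and 5.01 after desflurane. *Ccna2*, encoding cyclin A2, had 4.32, 6.16, 8.11, and 7.86 TPM. *Plk1*, which drives mitotic entry and spindle assembly, had 1.79, 3.41, 3.32, and 2.08 TPM. In these 3 genes the sevoflurane control was the lowest.

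Of the aurora kinases, *Aurka*, which acts at spindle poles, had 3.47, 5.65, 4.95, and 3.33 TPM. *Aurkb*, the kinase of the chromosomal passenger complex, had 1.59, 2.91, 3.01, and 1.82 TPM, and *Birc5*, encoding its partner survivin, had 3.39, 6.07, 4.63, and 4.19 TPM. After sevoflurane, *Aurka* and *Birc5* were also above the desflurane control, by 1.14-fold and 1.31-fold.

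The proliferation marker *Mki67* had 5.74 TPM in the sevoflurane control, 8.21 after sevoflurane, 9.97 in the desflurane control, and 9.09 after desflurane. *Top2a*, the topoisomerase that untangles chromosomes, had 3.0, 4.64, 5.0, and 4.18 TPM, and the checkpoint kinase *Bub1* had 1.96, 2.67, 2.35, and 2.38 TPM. For all 3 genes the largest of the 4 values was less than 2-fold above the smallest.

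*Cdc20* and *Cdc25b* differed from the group. *Cdc20*, which activates the anaphase-promoting complex, had 5.01, 6.15, 8.75, and 4.61 TPM and was 1.90-fold lower with desflurane than in its own control. It passed the limits for this comparison after median-of-ratios scaling and with FPKM. Against the sevoflurane control it was 1.09-fold lower. *Cdc25b*, the phosphatase that starts CDK1 activation, had 8.43, 4.77, 4.71, and 4.65 TPM, and the sevoflurane control was the highest of the 4, not the lowest.

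**Figure D4:**
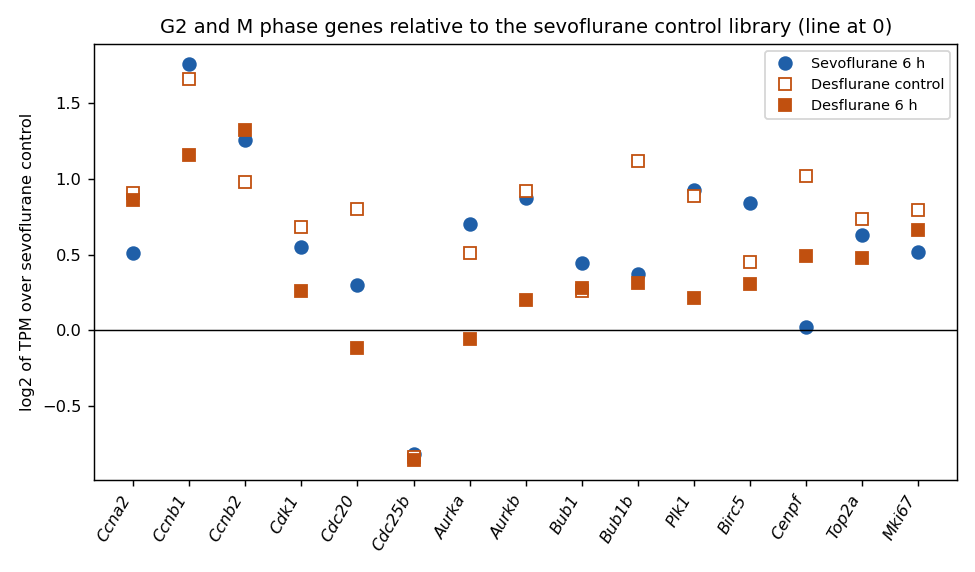
log2 of TPM relative to the sevoflurane control (line at 0) for the 15 genes of G2 and M phase in the other 3 libraries, with 1 point per library. All 3 points lie above the line for 12 of the 15 genes, and all 3 lie below it for *Cdc25b*.

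CHR windows of 6 of these genes are shown because this element is the best known common feature of the group. Capitals mark TTTGAA or TTCGAA on either strand, and the match of *Top2a* is on the opposite strand. The windows are again from RefSeq on GRCr8.
Cdk1, chr20:19265268-19265291, plus strand: cgcggtgagTTTGAAactgctggc
Bub1b, chr3:126017054-126017077, plus strand: gacgttaaaTTTGAAagttggcgg
Plk1, chr1:186147655-186147678, plus strand: agcgctgcgTTTGAAttcggggag
Birc5, chr10:103572129-103572152, plus strand: cccgcgggtTTTGAAttagggatt
Top2a, chr10:84473101-84473124, minus strand: agatgaatgTTCAAAtgaaactag
Mki67, chr1:199952678-199952701, minus strand: ccgttttcgTTTGAAttgggcggg
A match was present in 10 of the 13 promoters of this group in the table, compared with 3 of 8 for the S phase genes and 19.7% of all promoters. CCAAT, the box bound by NF-Y, was also present in 10 of 13, where 37.5% of all promoters held it. *Cdc25b* had a CHR match as well, although its values ran the other way. The E-box CACGTG was present in 6.42% of all promoters and among the members in *Cdk4* and *Mcm2*.

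Among the inhibitors, *Cdkn1a* varied most. It encodes p21, which blocks CDK2 and is a main target of p53. It had 2.91 TPM in the sevoflurane control, 4.47 after sevoflurane, 8.56 in the desflurane control, and 5.36 after desflurane. Both 6 h livers lay between the 2 controls, which differed 2.94-fold. *Cdkn1a* (chr20:6348422-6358864, plus strand of rn6) was therefore 1.54-fold higher with sevoflurane and 1.60-fold lower with desflurane from the own controls, and 1.91-fold lower and 1.84-fold higher from the other controls.

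*Cdkn1b*, encoding p27, was the most abundant inhibitor and nearly flat, with 27.7, 25.8, 23.7, and 27.9 TPM in the order used above. *Cdkn2c*, an inhibitor of CDK4 and CDK6, had 2.02, 3.60, 3.76, and 3.23 TPM, with the sevoflurane control as the lowest. *Wee1*, the kinase that holds CDK1 inactive, had 3.42, 3.76, 2.49, and 2.42 TPM, with both sevoflurane livers above both desflurane livers. None of the 5 inhibitors passed the limits against its own control. Their median log2 changes were 0.29 with sevoflurane and -0.03 with desflurane, and with the control of the other agent they were -0.05 and 0.48.

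Further genes of the same pathways were examined as lists. Of 25 other S phase genes higher than 1 TPM, 18 were higher with sevoflurane and 17 lower with desflurane, with medians of 0.10 and -0.14, and 8 had the order of the MCM genes. *Mcm10*, which helps the helicase to start unwinding, was the only gene of the lists past the limits against both controls. It had 3.07 TPM in the sevoflurane control, 6.84 after sevoflurane, 1.99 in the desflurane control, and 4.28 after desflurane, so that unlike *Mcm2* to *Mcm7* it was higher than its own control with desflurane as well (2.15-fold) as with sevoflurane (2.22-fold). Against the other control it was 3.43-fold higher with sevoflurane and 1.39-fold higher with desflurane.

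Of 42 other genes of G2 and M phase higher than 1 TPM, the sevoflurane control was the lowest in 32, in 28 after median-of-ratios scaling, and in 27 with FPKM. The median log2 change with sevoflurane was 0.36 from its own control and 0.03 from the desflurane control (-0.02 after median-of-ratios scaling), and 36 of the 42 genes were higher in the desflurane control than in the sevoflurane control. Sevoflurane upregulated 2 of them, where 2.23% of all genes passed, with 1 left after median-of-ratios scaling and 0 with FPKM, and downregulated 0 (3.3% of all genes). Desflurane upregulated 0 (2.79%) and downregulated 0 (1.48%). The 12 genes of the E2F, RB, and MYC families above 1 TPM had medians of -0.05 with sevoflurane and 0.02 with desflurane, with 0 calls by either agent in TPM. Desflurane downregulated 1 of them after median-of-ratios scaling and with FPKM, where 1.98% and 1.44% of all genes passed.

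Of 16 targets of p53 above 1 TPM, which did not include *Cdkn1a*, each agent upregulated 1, where 2.23% of all genes passed with sevoflurane and 2.79% with desflurane, and downregulated 0, with medians of 0.13 and 0.07. The call with desflurane was lost after median-of-ratios scaling and with FPKM. After median-of-ratios scaling, the desflurane medians of the E2F and p53 lists were -0.09 and -0.04. The 8 other inhibitors above 1 TPM had medians of 0.12 and 0.17, and the 9 growth factors and receptors that drive or restrain liver growth had -0.27 and 0.28, and both lists had 0 calls with either agent.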

How the data were processed

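RNA from 4 rat livers was sequenced, 1 library per condition, with conditions taken from the sample labels. Per the study's methods, the authors used sickle 1.33 for trimming (quality 30, length 20), HISAT2 2.1.0 for mapping to rn6, SAMtools 1.10 for sorting, and StringTie 2.1.2 for the refGene genes. The study's methods and the labels name different stranded total RNA kits. The deposited tables give, for each gene, a TPM signal, an FPKM value scaled by the authors' StringTie run to library size, and an average coverage signal, which is not scaled.

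Here, rows of 200 bp or shorter and assembled rows were removed, and TPM was summed per gene ID. Calls followed the study's limits (TPM higher than 2 in the higher library, more than 2-fold). Medians used log2(TPM + 1) over genes higher than 1 TPM in any library, and such changes understate those of low genes. All 40 members are named, with 4 values where any library exceeded 2 TPM and otherwise the range. Genes of the other pathway lists are named when past the limits against both controls. Members and lists were chosen with earlier results of these data known. Promoters came from RefSeq (GRCr8), matched by symbol for 30 of 40 members. The call rule was tested on simulated data. Python 3.11.15, numpy 2.4.6, pandas 2.3.3, and matplotlib 3.10.9 were used. Alternatives covered the TPM and fold limits, pseudocounts, scaling, the length filter, and the choice of control.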

Additional observations from a re-analysis of the deposited data

Results flagged for a closer look

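In 4 members the agents moved the level more than 1.5-fold in opposite directions from the respective control, higher with sevoflurane and lower with desflurane. The fold change with sevoflurane divided by that with desflurane was 3.18 for *Rrm2*, 3.03 for *Aurkb*, 3.04 for *Plk1*, and 2.46 for *Cdkn1a*. Each agent has 1 library per state, and the difference was not tested. No share of all genes was worked out for this rule. All 4 genes were higher in the desflurane control than in the sevoflurane control, by 2.06-fold, 1.90-fold, 1.85-fold, and 2.94-fold in the same order. Against the control of the other agent, the ratios were 0.964, 0.966, 1.03, and 0.523 with sevoflurane. With desflurane they were 1.29, 1.15, 1.16, and 1.84, so that the opposite directions depended on the control used. Between the 6 h livers, desflurane was 1.54-fold, 1.60-fold, and 1.64-fold lower for the first 3 genes and 1.20-fold higher for *Cdkn1a*. In assembled rows, *Plk1* had 2.65 TPM in the sevoflurane control (66.2% of the span), 3.41 after sevoflurane, 3.32 in the desflurane control, and 2.61 after desflurane. Its differences were thus smaller. *Aurkb* had 1.64, 2.91, 3.01, and 1.90 TPM in that order, close to its annotated values. Rows of *Rrm2* and *Cdkn1a* covered only part of the span in most libraries.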

How the results depend on the processing

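With a 1.5-fold limit, sevoflurane gave 16 calls instead of 3 (14 up and 2 down) and desflurane 11 instead of 4 (1 up and 10 down). Calls outside both controls, added over the 2 agents, were 7 instead of 4 (3 up and 4 down). *Plk3* is counted once for each agent in both of these numbers. No share of all genes was worked out at this limit, so these counts have no background. With FPKM, sevoflurane gave 1 call, since fewer genes exceed 2 on that scale. With the control of the other agent, desflurane gave 7 calls (3 up and 4 down), where 280 and 156 of 10873 genes passed. Its median log2 change went from -0.18 to 0.10, and that of sevoflurane from 0.33 to 0.10. The cause was not tested. The sevoflurane median was 0.46 with a pseudocount of 0.1 TPM, and the desflurane median was -0.28 after median-of-ratios scaling. Under the other alternatives run, these 5 results kept their direction, with counts within 1.5 times and medians within 0.1. *Ccnb1* and *Ccnb2* with sevoflurane (1.07-fold and 1.21-fold) and *Plk2* with desflurane (0.757 of the control) lost their calls with the control of the other agent. *Plk3* (2.62-fold to 2.89-fold with sevoflurane, 3.28-fold to 3.92-fold with desflurane), *Ccnd2* (0.363 to 0.397 of the control with desflurane), and *Mcm6* (0.293 to 0.369) kept theirs under both controls, median-of-ratios scaling, and assembled rows. Assembled rows, in which *Ccnb1* was 1.77-fold higher with sevoflurane, and the removal of *Ccnb2*, which left 2 and 4 calls and medians of 0.31 and -0.19, were chosen after seeing the data. No paired analysis was possible because the labels give no replicate numbers and each condition has 1 library, and no library could be left out. The low coverage of the members (lowest 0.941 to 1.45 per library) limits the precision of genes near 2 TPM.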
